A study of Komagataella pastoris with 6 samples.

Results

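The 6 genes described here were listed as members of the route by which the methylotrophic yeast *Pichia pastoris* builds methanol carbon into sugar phosphates. The rule that chose them lists identifiers and uses no measured value, although earlier results of these data were known when it was written. The genes are DAS1 (PAS_chr3_0832), DAS2 (PAS_chr3_0834), DAK2 (PAS_chr3_0841), FBA1-2 (PAS_chr1-1_0319), SHB17 (PAS_chr2-2_0177) and TAL1-2 (PAS_chr2-2_0337). All 6 were found among the 5040 genes of the count table, and all 6 were among the 5029 genes tested. The gene names come with this choice of identifiers. No table used here pairs the identifiers with names, sequences, lengths or positions, so the names could not be checked and levels are not compared between genes.

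RNA was sequenced from 3 cultures each of the flocculating strain KM71-ScFlo1-LpDLDH and of its control, KM71-LpDLDH. KM71-ScFlo1-LpDLDH carries the *S. cerevisiae* flocculation gene ScFLO1, which makes cells clump, together with the d-lactate dehydrogenase gene LpDLDH of *Leuconostoc pseudomesenteroides*. KM71-LpDLDH carries LpDLDH alone. Both transgenes are driven by the constitutive GAP promoter, ScFLO1 was introduced on a plasmid with a HIS4 marker, and both strains derive from KM71, a strain in which the alcohol oxidase gene AOX1 is disrupted and growth on methanol is slow. Effects of ScFLO1, of its plasmid and marker, and of any other difference between the transformants cannot be told apart here. The cultures grew at 30 °C in MGYH, a minimal medium with glycerol as carbon source and added histidine, and were sampled in mid-exponential phase after about 21 h. The methods name no methanol in this medium. The libraries held between 10386352 and 12767753 reads on genes, and each pair of replicates differed by more than counting noise (chi-square per degree of freedom of 11.9 to 68.1, the highest between replicates 1 and 3 of KM71-ScFlo1-LpDLDH).

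In methylotrophic yeasts, methanol is oxidized to formaldehyde inside peroxisomes. Dihydroxyacetone synthase, the enzyme of DAS1 and DAS2, joins formaldehyde to xylulose 5-phosphate and yields dihydroxyacetone and glyceraldehyde 3-phosphate. Dihydroxyacetone kinase phosphorylates the dihydroxyacetone, and aldolase, sedoheptulose bisphosphatase and transaldolase take part in rearranging the products so that xylulose 5-phosphate is formed again. The DAS genes are known for strong induction on methanol and for repression on glycerol and glucose. The comparison below therefore asks how these genes were expressed on glycerol, and whether the flocculating strain differed in them.

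The thresholds stated in the methods, a fold change of more than 2 with an adjusted p below 0.05, were passed by 0 of the 6 genes, while 16.4% of all tested genes passed them (8.41% higher and 7.99% lower in KM71-ScFlo1-LpDLDH). With the cut-off read on the log2 scale, which is a fold change above 4, 0 of the 6 and 3.3% of all tested genes passed. By the adjusted p alone (edgeR's quasi-likelihood test, Benjamini-Hochberg adjusted over the 5029 genes), 4 of the 6 differed, against 64.2% of all tested genes. DAK2, TAL1-2 and DAS1 were lower in KM71-ScFlo1-LpDLDH (3 of 6, against 31.5% of all genes) and SHB17 was higher (1 of 6, against 32.6%). DAS2 and FBA1-2 did not pass the test. The strains did not overlap for 3 of the 6, against 68.9% of all tested genes. SHB17 lay wholly above the control libraries (1 of 6, against 35.3%), and DAK2 and TAL1-2 wholly below them (2 of 6, against 33.6%). These shares are close to those of the whole table for a list of 6. Levels are given as CPM, the reads of a gene relative to the library total after TMM scaling. A log2 fold change is that of KM71-ScFlo1-LpDLDH relative to KM71-LpDLDH, and its standard error (SE) was taken from the spread of log2 CPM between cultures.

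**Figure D1:**
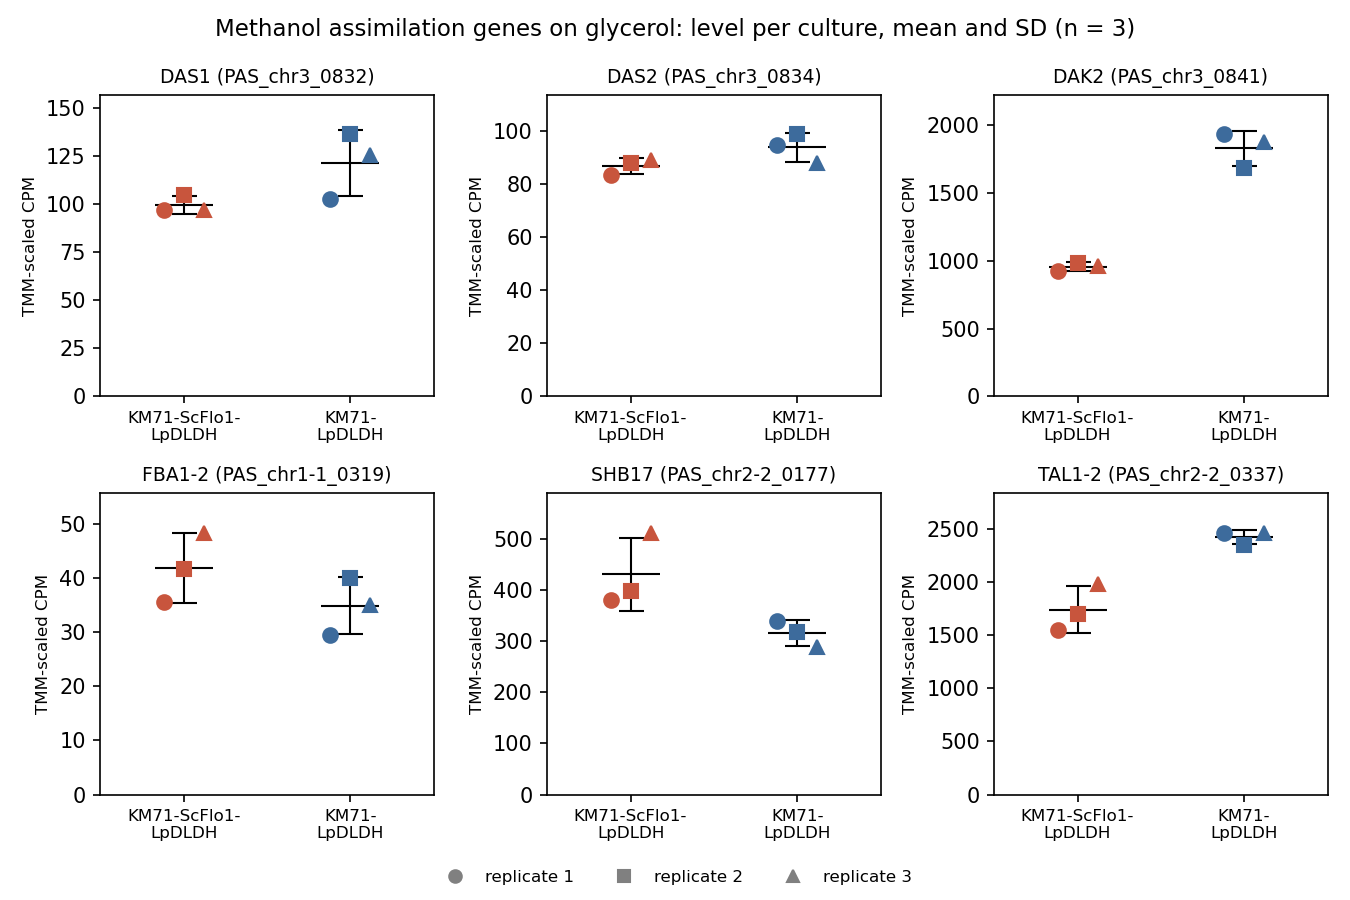
Level of each gene in TMM-scaled CPM (vertical axes from 0, 1 panel a gene) in the 3 cultures of KM71-ScFlo1-LpDLDH (left, red) and of KM71-LpDLDH (right, blue), with horizontal lines at the mean and bars for the SD. The strains separate without overlap for DAK2, SHB17 and TAL1-2 and overlap for DAS1, DAS2 and FBA1-2.

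DAS1, the first of the dihydroxyacetone synthase genes, had 1299, 1217 and 1001 reads in replicates 1, 2 and 3 of KM71-ScFlo1-LpDLDH, and 1198, 1728 and 1460 reads in those of KM71-LpDLDH. Scaled for library size, these were 96.8, 105 and 96.9 CPM in KM71-ScFlo1-LpDLDH, against 103, 136 and 126 CPM in KM71-LpDLDH. The strains overlapped, because replicate 1 of KM71-LpDLDH lay below replicate 2 of KM71-ScFlo1-LpDLDH. The means were 99.6 ± 4.71 CPM in KM71-ScFlo1-LpDLDH and 122 ± 17.1 CPM in KM71-LpDLDH (SD, n = 3 each), a log2 fold change of -0.29 (SE 0.13, adjusted p = 0.0367 by edgeR's quasi-likelihood test). This call was the least firm of the 4. It was lost with total-count scaling (adjusted p = 0.194) and when any library other than replicate 1 of KM71-LpDLDH was left out (adjusted p of 0.0544 to 0.138).

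DAS2, the second dihydroxyacetone synthase gene, had 1120, 1021 and 920 reads in KM71-ScFlo1-LpDLDH, against 1104, 1252 and 1024 reads in KM71-LpDLDH. Its scaled levels of 83.4, 88.1 and 89.1 CPM in KM71-ScFlo1-LpDLDH overlapped those of 94.8, 98.8 and 88.1 CPM in KM71-LpDLDH. The log2 fold change was -0.11 (SE 0.06, adjusted p = 0.251 by the same edgeR test), and the 95% interval from limma ran from -0.30 to 0.07. A change of DAS2 by a factor of 2 in either direction thus lay outside the interval, while a small fall did not. Of all tested genes, 15.8% had a smaller absolute log2 fold change than DAS2, and 37.5% a smaller one than DAS1.

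Reads were thus counted on both dihydroxyacetone synthase genes on glycerol in each of the 6 cultures, with 920 reads or more in each library. The counting error at these depths was small, with a Poisson coefficient of variation of 2.92% for DAS1 and 3.13% for DAS2 in KM71-ScFlo1-LpDLDH, and 2.62% and 2.98% in KM71-LpDLDH. The observed coefficients of variation were 4.73% for DAS1 and 3.47% for DAS2 in KM71-ScFlo1-LpDLDH, against 14.1% for DAS1 and 5.79% for DAS2 in KM71-LpDLDH. For these isoenzyme genes, the cultures thus spread furthest beyond counting error for DAS1 in KM71-LpDLDH.

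The ratio of DAS1 to DAS2 reads within a library does not depend on scaling. It was 1.16, 1.19 and 1.09 in KM71-ScFlo1-LpDLDH, against 1.09, 1.38 and 1.43 in KM71-LpDLDH. The control cultures fell apart here, with replicate 1 at the low end, marginally below the lowest flocculating culture, and replicates 2 and 3 above all flocculating cultures. The log2 ratio averaged 0.20 ± 0.07 in KM71-ScFlo1-LpDLDH and 0.36 ± 0.22 in KM71-LpDLDH (SD, n = 3 each), and the difference of -0.17 gave p = 0.4 in a two-sided exact permutation test, whose smallest possible p with 3 against 3 is 0.1. The methods describe counts of uniquely mapped reads. The isoenzyme genes may be alike enough in sequence for such counts to miss reads of both. How alike DAS1 and DAS2 are was not analysed here, so the split of reads between them is uncertain.

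DAK2, the dihydroxyacetone kinase gene, showed the largest difference of the 6. It had 12370, 11404 and 9925 reads in KM71-ScFlo1-LpDLDH, against 22508, 21333 and 21788 reads in KM71-LpDLDH. The scaled levels were 922, 984 and 961 CPM in KM71-ScFlo1-LpDLDH, against 1933, 1684 and 1874 CPM in KM71-LpDLDH. Every culture of the flocculating strain was far below every control culture, and the cultures of each strain lay close together. The means of 956 ± 31.6 CPM in KM71-ScFlo1-LpDLDH and 1830 ± 130 CPM in KM71-LpDLDH (SD, n = 3 each) gave a log2 fold change of -0.94 (SE 0.07, adjusted p = 1.84e-05 by edgeR's quasi-likelihood test), which is a 1.92-fold lower level. This estimate is just short of the fold change cut-off of 2. It stayed short with each library left out in turn (log2 fold changes of -0.997 to -0.898, against a cut-off of -1). The 95% interval from limma ran from -1.15 to -0.72. A fall of DAK2 by more than a factor of 2 thus lay within the interval, as did a smaller fall. In absolute size, 81.6% of all tested genes had a smaller log2 fold change than DAK2. The identifier numbered after DAK2, PAS_chr3_0842, was also lower, with 60.4 ± 13.1 CPM in KM71-ScFlo1-LpDLDH and 132 ± 6.99 CPM in KM71-LpDLDH (SD, n = 3 each), and passed both thresholds (log2 fold change -1.13). The identifier numbered before it, PAS_chr3_0840, had a log2 fold change of 0.19 (adjusted p = 0.202), and of those numbered 2 away PAS_chr3_0843 was higher (0.57) and PAS_chr3_0839 lower (-0.34). Whether DAK2 shares reads with any of them was not tested.

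FBA1-2, named as the second fructose-bisphosphate aldolase gene, was counted at 477, 483 and 500 reads in KM71-ScFlo1-LpDLDH and at 344, 507 and 408 reads in KM71-LpDLDH. The scaled levels were 35.5, 41.7 and 48.4 CPM in KM71-ScFlo1-LpDLDH, against 29.5, 40.0 and 35.1 CPM in KM71-LpDLDH. The ranges overlapped, and the spread within each strain was about as wide as the difference between them. The means were 41.9 ± 6.44 CPM in KM71-ScFlo1-LpDLDH and 34.9 ± 5.24 CPM in KM71-LpDLDH (SD, n = 3 each), with a log2 fold change of 0.26 (SE 0.18, adjusted p = 0.146 by the same edgeR test). The 95% interval from limma ran from -0.08 to 0.58, which leaves room for no change and for a moderate rise. Without replicate 3 of KM71-ScFlo1-LpDLDH, the highest of the 6 cultures, the log2 fold change was 0.14.

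SHB17, the sedoheptulose bisphosphatase gene, was the one gene of the 6 that passed the test with a higher level in the flocculating strain. It had 5108, 4613 and 5285 reads in KM71-ScFlo1-LpDLDH, against 3946, 4030 and 3360 reads in KM71-LpDLDH. In CPM these were 381, 398 and 512 in KM71-ScFlo1-LpDLDH, against 339, 318 and 289 in KM71-LpDLDH. The strains did not overlap, and replicate 3 of KM71-ScFlo1-LpDLDH stood above the other flocculating cultures. The means of 430 ± 71.3 CPM in KM71-ScFlo1-LpDLDH and 315 ± 25.1 CPM in KM71-LpDLDH (SD, n = 3 each) gave a log2 fold change of 0.45 (SE 0.15, adjusted p = 0.00842 by edgeR's quasi-likelihood test), a 1.36-fold higher level. Without replicate 3 of KM71-ScFlo1-LpDLDH it was 0.30 (adjusted p = 0.0126). The identifiers numbered directly before and after SHB17, PAS_chr2-2_0176 and PAS_chr2-2_0178, were higher as well, with log2 fold changes of 0.59 and 0.53. Those numbered 2 away, PAS_chr2-2_0175 and PAS_chr2-2_0179, were lower, at -0.37 and -0.55. Of the 18 identifiers numbered 1 or 2 away from any of the 6 genes, 14 passed the adjusted p and 3 passed both thresholds. Over all tested genes these shares were 64.2% and 16.4%. Whether reads of any neighbour contribute to SHB17 was not tested.

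The transaldolase gene PAS_chr2-2_0337, named TAL1-2, had 20717, 19674 and 20426 reads in KM71-ScFlo1-LpDLDH, against 28669, 29729 and 28651 reads in KM71-LpDLDH. Scaled, it reached 1544, 1698 and 1978 CPM in KM71-ScFlo1-LpDLDH, against 2462, 2346 and 2464 CPM in KM71-LpDLDH. All flocculating cultures were below all control cultures, and they were also the more variable group (coefficient of variation of 12.7% in KM71-ScFlo1-LpDLDH, against 2.78% in KM71-LpDLDH). The means were 1740 ± 220 CPM in KM71-ScFlo1-LpDLDH and 2424 ± 67.3 CPM in KM71-LpDLDH (SD, n = 3 each), a log2 fold change of -0.48 (SE 0.11, adjusted p = 0.00432 by edgeR's quasi-likelihood test), which is 1.39-fold lower. The next identifier, PAS_chr2-2_0338, had 175 to 285 reads in a KM71-ScFlo1-LpDLDH library, against 167 to 207 in a KM71-LpDLDH library, and did not pass the test (adjusted p = 0.168). Which identifier the name TAL1-2 belongs to could not be checked, and PAS_chr2-2_0337 drew far more reads than PAS_chr2-2_0338 in each library, with no correction for gene length. All values under this name, the sum and the shares hold for PAS_chr2-2_0337. Without it, 3 of the other 5 genes passed the adjusted p and 0 passed both thresholds. The identifiers numbered 1 and 2 before it, PAS_chr2-2_0336 and PAS_chr2-2_0335, had at most 87 reads in any library and were lower past both thresholds, with log2 fold changes of -1.20 and -1.30. Whether reads are shared was not tested.

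Placed among all tested genes, the 6 genes sat in the body of the distribution. Their log2 fold changes ran from -0.94 to 0.45 with a median of -0.20, while the median over all tested genes was 0.02 and the middle 90% of them lay between -1.33 and 1.27. DAK2 was the gene nearest to the edge of that range. The signs of all 6 were the same with TMM, total-count and DESeq2 scaling.

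**Figure D2:**
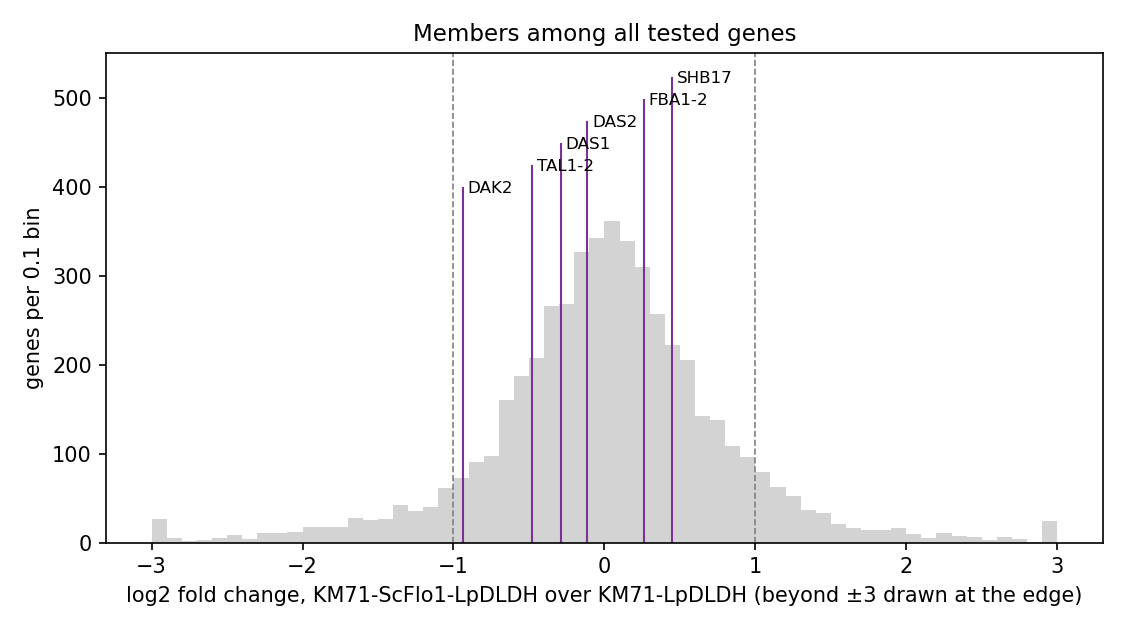
Histogram of the log2 fold changes of the 5029 tested genes (horizontal axis, KM71-ScFlo1-LpDLDH over KM71-LpDLDH, values beyond 3 in either direction drawn at the edge; vertical axis, genes per bin of 0.1), with vertical lines at the 6 genes and dashed lines at the fold change cut-off of 2. All 6 lie between the dashed lines, DAK2 closest to one at -0.94.

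The genes did not change as a block. Summed over the 6, the reads made up 0.329%, 0.346% and 0.366% of the library in KM71-ScFlo1-LpDLDH, against 0.476%, 0.459% and 0.459% in KM71-LpDLDH. The sum was thus lower in each flocculating culture. Most of its reads came from DAK2 and TAL1-2, both lower in that strain. Within the sum, DAK2 took 28.6 ± 2.21% of the reads in KM71-ScFlo1-LpDLDH and 37.9 ± 1.34% in KM71-LpDLDH (SD, n = 3 each). SHB17 took 12.8 ± 0.985% in KM71-ScFlo1-LpDLDH and 6.55 ± 0.536% in KM71-LpDLDH, without overlap. TAL1-2 took nearly the same part in both, with 51.8 ± 1.70% in KM71-ScFlo1-LpDLDH and 50.3 ± 0.597% in KM71-LpDLDH, and its ranges overlapped. The shares add up to the whole, so a fall in one raises the others, and they are not corrected for gene length.

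**Figure D3:**
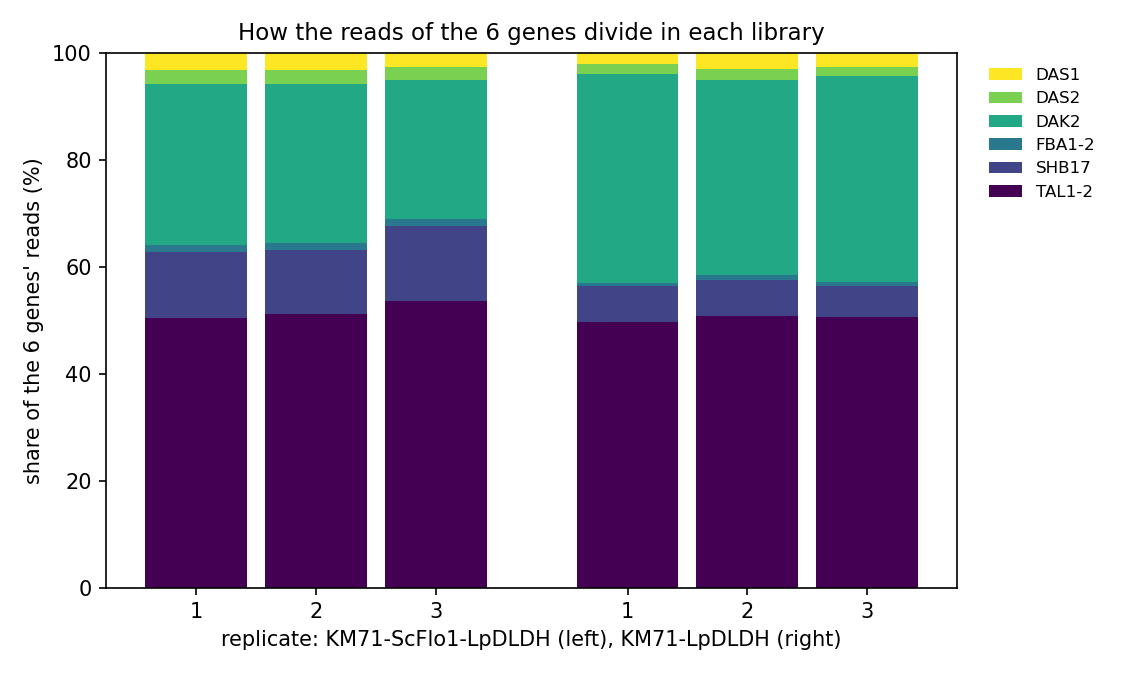
Share of the summed reads of the 6 genes that each gene took in each library (vertical axis, percent; stacked bars, 1 a library, KM71-ScFlo1-LpDLDH left and KM71-LpDLDH right). SHB17 takes a mean of 12.8% in the flocculating strain and 6.55% in the control strain, and DAK2 28.6% and 37.9%.

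Likeness of pattern was measured as the Euclidean distance between the 6 log2 CPM values of 2 genes, each centred on its own mean, so that 0 means the same course over the 6 libraries. Among the 15 pairs of the 6 genes the distance ran from 0.38, between DAS1 and DAS2, to 1.72, between DAK2 and SHB17. FBA1-2 and SHB17, both with their highest level in replicate 3 of KM71-ScFlo1-LpDLDH, lay 0.48 apart. Each of the 6 had genes outside this group that lay closer to it than any of the other 5. With 5029 genes tested and 6 values per gene, such near genes are likely for any gene, so nothing about the group follows from them. The distance is not scaled by the size of a change, so genes that change little lie close together. The nearest to DAS1 was PAS_chr4_0050 (distance 0.09), to DAS2 PAS_chr2-1_0470 (0.05), to DAK2 PAS_chr1-1_0131 (0.08), to FBA1-2 PAS_chr4_0054 (0.13), to SHB17 PAS_chr2-1_0170 (0.16) and to PAS_chr2-2_0337 PAS_chr1-1_0478 (0.06). What these genes encode was not analysed here.

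Other identifiers, in a pair of lists, were set beside the 6 genes. They were written down from general knowledge of the GS115 locus tags, 6 for the oxidation of methanol and formaldehyde and 7 for related or linked sugar phosphate enzymes, and no table used here pairs them with genes. They are therefore given by identifier only, and their assignment was not checked. As with the 6 genes, earlier results of these data were known when the lists were written. Of the 6 listed for oxidation, 5 were higher and 1 was lower in KM71-ScFlo1-LpDLDH past both thresholds, against 8.41% higher and 7.99% lower over all tested genes. The median log2 fold change of these 6 was 1.47. Among those higher, PAS_chr3_0932 had few reads, with 233, 344 and 108 in KM71-ScFlo1-LpDLDH, against 15, 36 and 11 in KM71-LpDLDH. PAS_chr2-2_0131 spread widely in KM71-ScFlo1-LpDLDH, at 1761, 1436 and 773 CPM, against 406, 403 and 346 CPM in KM71-LpDLDH. PAS_chr3_1028 had 2103, 2299 and 2565 CPM in KM71-ScFlo1-LpDLDH, against 321, 309 and 301 CPM in KM71-LpDLDH, a log2 fold change of 2.90 (adjusted p = 2.77e-08 by edgeR's quasi-likelihood test), and the strains were far apart. The one that was lower, PAS_chr4_0821, had 113, 108 and 133 CPM in KM71-ScFlo1-LpDLDH, against 286, 266 and 270 CPM in KM71-LpDLDH, a log2 fold change of -1.22. PAS_chr3_0867 lay close to the cut-off, at a 2.02-fold higher level. The count of those higher was 4 in place of 5 with DESeq2, with edgeR on DESeq2 size factors, and without replicate 1 or replicate 2 of KM71-ScFlo1-LpDLDH or replicate 3 of KM71-LpDLDH.

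Of the 7 listed for linked enzymes, 1 was higher and 0 were lower past both thresholds, against 8.41% and 7.99% of all tested genes. By the adjusted p alone 2 were higher and 1 lower, against 32.6% and 31.5%. The count higher past both thresholds was 2 with total-count scaling and without replicate 1 of KM71-ScFlo1-LpDLDH. Their median log2 fold change was -0.09, beside -0.20 for the 6 genes. PAS_chr4_0212 was the one past both thresholds, with 36.0 ± 3.08 CPM in KM71-ScFlo1-LpDLDH and 15.8 ± 1.77 CPM in KM71-LpDLDH (SD, n = 3 each), a log2 fold change of 1.19. PAS_chr3_0868 followed with a log2 fold change of 0.93, and PAS_chr4_0213 was lower at -0.67. The other 4, among them PAS_chr1-4_0150 with a log2 fold change of -0.09, did not pass the test. Whether the difference between strains was unequal between the lists and the 6 genes was not tested.

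**Figure D4:**
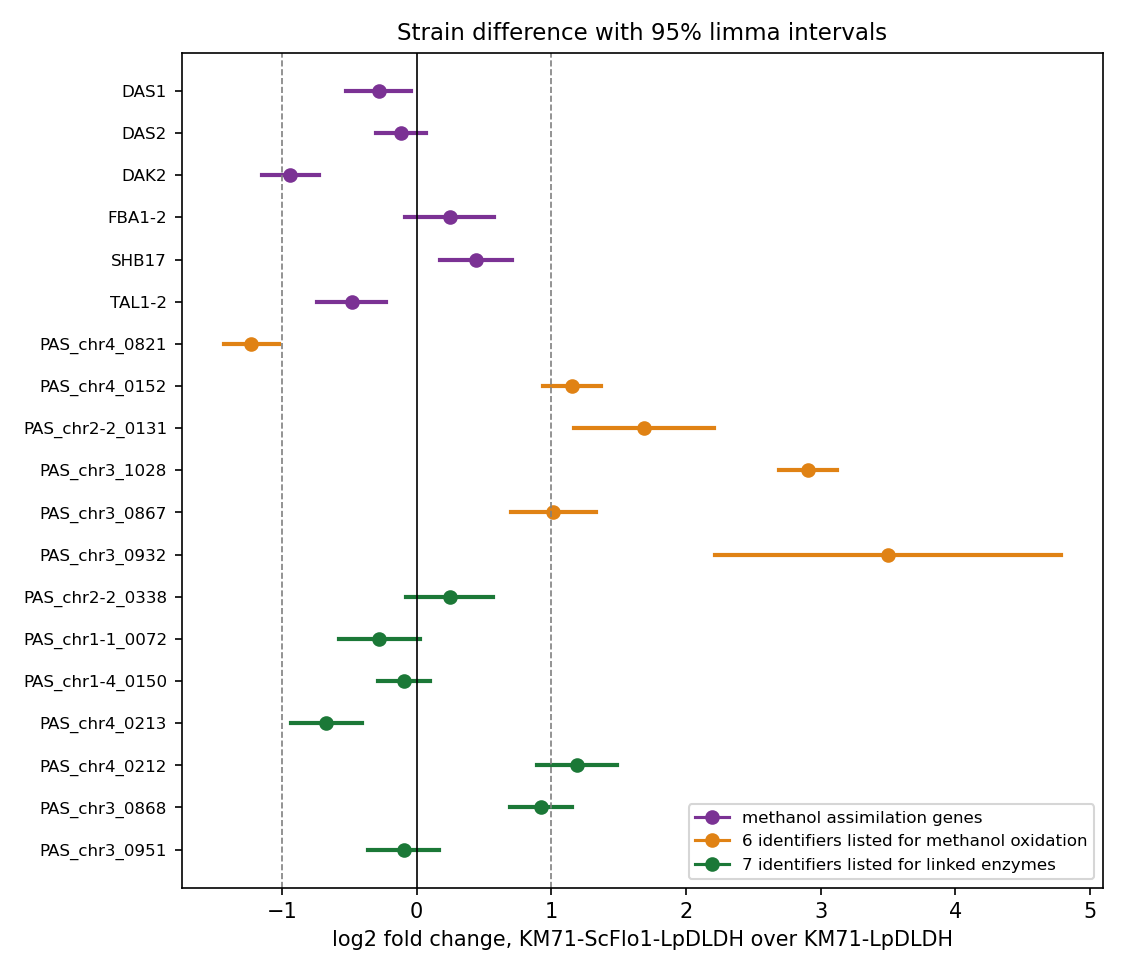
Log2 fold change of KM71-ScFlo1-LpDLDH over KM71-LpDLDH (horizontal axis) from limma, with lines for the 95% interval, for the 6 methanol assimilation genes (purple), 6 identifiers listed for methanol oxidation (orange) and 7 listed for linked enzymes (green), with dashed lines at the fold change cut-off of 2. The purple points all lie inside the dashed lines, while all 6 orange points lie outside them. The intervals of DAK2, PAS_chr4_0152 and PAS_chr3_0867 cross a dashed line, as do those of PAS_chr4_0212 and PAS_chr3_0868 in green.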

How the data were processed

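The authors filtered reads with fastp, mapped them with HISAT2 to the GS115 genome of *P. pastoris*, counted them per gene with HTSeq-count and deposited 1 table of read counts. Versions, and whether counting used strand, were not given in the sources used here. Although its file name calls it normalized, the table was taken to hold raw counts, because it has whole numbers and unequal library totals and DESeq2 size factors ran from 0.872 to 1.15. Columns that belong to no sample numbered 0.

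Genes were kept at a mean count of 10 or more (5029, with 11 left out), scaled by TMM and tested with edgeR 4.0.16 in R 4.3.3 (prior count 0.125). Standard errors and distances were computed on log2 CPM with a prior count of 2. A called gene had a fold change of more than 2 and a Benjamini-Hochberg adjusted p below 0.05. The alternatives were DESeq2 1.42.0, limma 3.58.1 (voom), other scalings, filters and fold change cut-offs, a prior count of 5, a block for the replicate number, and leaving out 1 library at a time. The edgeR test was checked on simulated counts. Triplicate cultures, as the methods describe them, were taken as replicates. The genes and lists were chosen with earlier results of these data known. The rule for named genes took all 6 genes and, for each, the 3 genes nearest in pattern, of which the nearest is printed. Sequences, gene lengths and positions were not analysed here.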

Additional observations from a re-analysis of the deposited data

How the results depend on the processing

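No gene of the 6 passed both thresholds under any alternative that kept the fold change cut-off, and 4 did with no cut-off, which is the adjusted p alone. DAK2, SHB17 and TAL1-2 kept their direction and stayed past the adjusted p in each of 14 alternatives, with log2 fold changes of -0.997 to -0.831 for DAK2, 0.30 to 0.55 for SHB17 and -0.58 to -0.38 for TAL1-2. DAS2 (-0.16 to -0.01) and FBA1-2 (0.14 to 0.37) stayed short of it in all 14. The log2 fold change of DAS1 was -0.18 with total-count scaling and ran from -0.40 to -0.20 with each library left out, losing its call as stated above. Total-count scaling moved the median of all genes to 0.13, against 0.02 with TMM, so relative to that median DAS1 lay at a similar distance. Over all genes 825 were called, 794 to 886 with each library left out, 166 with a fold change above 4 and 3227 with no cut-off. The replicate numbers did not pair the cultures (correlations of -0.13, 0.05 and 0.11 between deviations of same-numbered libraries). With the replicate number as a block, 829 genes and 0 of the 6 were called, and the log2 fold change of DAS1 was -0.28. An adjusted p under 0.01, an alternative chosen after seeing the data, left 3 of the 6. The difference in the DAS1 to DAS2 log2 ratio was -0.29 to -0.10 with each library left out. FBA1-2 had the fewest reads of the 6, at 344 to 507, but its cultures spread well beyond counting error. Its coefficient of variation was 15.4% in KM71-ScFlo1-LpDLDH and 15.0% in KM71-LpDLDH, against Poisson values of 4.53% and 4.88%.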
